A study of Gallus gallus with 4 samples.

Results

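Glycinergic amacrine cells of the chick retina were selected as single-cell barcodes that carried RNA of the glycine transporter SLC6A9. A barcode was kept with at least 200 genes detected and at most 5% of its UMIs (unique molecular identifiers, each standing for 1 captured RNA molecule) in mitochondrially encoded genes. A kept barcode was a member with 1 or more SLC6A9 UMIs, 1 or more UMIs among the partner genes TFAP2B, PAX6, LAMP5 and NEUROD6, and 0 UMIs of GAD1, GAD2 and RLBP1. This rule found 3057 members among 36389 kept barcodes, out of 41286 barcodes in all. The members came from whole retinas of wild-type chicks in 4 libraries, 1 per condition. The saline library came from eyes given saline at P6 and again at P10. The NMDA library came from eyes given saline at P6 and the excitotoxin NMDA at P10. The clodronate+saline and clodronate+NMDA libraries came from eyes that first received clodronate liposomes, which deplete microglia and macrophages, at P6, and then saline or NMDA at P10. Retinas were collected 24 h after the last injection. The sources used here do not say how many animals went into a library. With 1 library per condition, treatment and library cannot be told apart, so libraries were compared without a test. All intervals given for a single library or a ratio of libraries are exact 95% intervals for counting error only.

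Amacrine cells are inhibitory interneurons of the inner retina that shape the signals passing from bipolar cells to ganglion cells. Glycinergic types are mostly narrow-field cells that connect layers of the inner plexiform layer vertically, whereas most other amacrine cells release GABA. SLC6A9 encodes GlyT1, the transporter by which glycinergic amacrine cells take up glycine. GAD1 and GAD2 make GABA, and RLBP1 is a retinoid-binding protein of Müller glia (MG). PAX6 and TFAP2B are transcription factors of amacrine cells, LAMP5 encodes a vesicle-associated membrane protein, and NEUROD6 marks a narrow-field amacrine type in the mouse.

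The libraries held 8050 to 11434 barcodes and between 20614413 and 27033560 UMIs. Pairs of libraries shared 101 to 214 barcode sequences, which was 1.25% to 1.96% of the smaller library, and at most 3 of these were members in both. The members' median depth was 1700 UMIs for saline, 2162 for clodronate+saline, 2171.5 for NMDA and 3032.5 for clodronate+NMDA. The members' UMIs summed to 1525650, 3206013, 2751849 and 2254877 in the same order. A count of 0 over a library's members therefore allowed up to 1.97, 0.936, 1.09 and 1.33 CPM (UMIs divided by the summed UMIs of the class and scaled to a total of 1000000), respectively. Background detection was read in a photoreceptor gate of 4572 barcodes, which carried 2 or more of 6 photoreceptor genes and no UMI of GAD1, GAD2, TFAP2A, TFAP2B, RLBP1 or PAX6. In this gate 37.3%, 54.3%, 47.9% and 72.3% of barcodes had 3 or more cone markers and 6.23% to 9.82% had 3 or more rod markers. Bipolar cell markers reached 3 genes in 69.4%, 46.2%, 57.1% and 37.0% of them, so the gate is a mixed outer-retina background named by its rule, not a pure cell type.

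Members made up 7.28% of kept barcodes in the saline library (726 barcodes, 6.77 to 7.80%). The share was 12.7% in clodronate+saline (1259 barcodes, 12.1 to 13.4%). It was 6.75% in NMDA (646 barcodes, 6.26 to 7.28%) and 6.14% in clodronate+NMDA (426 barcodes, 5.58 to 6.73%). The clodronate+saline library stood above the other 3, and the intervals of the NMDA library overlapped those of the saline and clodronate+NMDA libraries. Because a deeper barcode is more likely to show an SLC6A9 UMI and also more likely to show a GAD1 UMI, each barcode was thinned to 1000 UMIs and the rule applied again. The shares became 6.28% (5.76 to 6.84%), 8.82% (8.23 to 9.44%), 4.0% (3.58 to 4.45%) and 2.82% (2.42 to 3.27%), with 777 to 2066 shallower barcodes left out per library. At equal depth both NMDA libraries thus fell below both libraries without NMDA, and no intervals overlapped. Of the members and the GABAergic gate combined, members were 36.6%, 46.0%, 44.2% and 31.8% before thinning and 33.9%, 39.1%, 35.7% and 19.6% after it. Fewer cells of a type and less RNA per cell cannot be told apart in a share that rests on detected RNA.

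Members were selected on the UMIs of the 8 gate genes, so the levels of these genes describe the members and were not tested. SLC6A9 (chromosome 8, 20069533 to 20085003, GRCg7b) stood at 1409, 1163, 583 and 290 CPM over the members of saline, clodronate+saline, NMDA and clodronate+NMDA. A single SLC6A9 UMI was all that 40.2% of saline members carried, and 39.3%, 51.9% and 70.0% of members in clodronate+saline, NMDA and clodronate+NMDA. The largest count in a member was 18, 19, 20 and 7 UMIs. Both NMDA libraries were lower in level and had more members at the edge of the rule.

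LAMP5 (chromosome 3, 13639282 to 13652695) was detected in 61.3%, 74.3%, 54.6% and 36.4% of members and stood at 601, 826, 381 and 169 CPM. In the GABAergic gate LAMP5 stood at 16.6 to 58.5 CPM, below its level over the members of every library. NEUROD6 (chromosome 2, 48531580 to 48558714) was found in fewer members, 17.1%, 13.8%, 14.7% and 11.5%. TFAP2B (chromosome 3, 108014200 to 108045483) was detected in 41.7%, 37.4%, 27.4% and 30.5% of members, and its level of 579, 508, 169 and 175 CPM was below that of the GABAergic gate (885, 857, 354 and 593 CPM) in each library. PAX6 (chromosome 5, 5398323 to 5415898) was the most widely detected partner, in 79.8%, 79.8%, 80.0% and 93.2% of members. PAX6 was the only partner in 21.3% of saline members, 14.6% of clodronate+saline members, 35.0% of NMDA members and 43.4% of clodronate+NMDA members.

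How far each partner accompanied SLC6A9 was read from the share of barcodes with an SLC6A9 UMI among kept barcodes without GAD1, GAD2 and RLBP1. Among photoreceptor gate barcodes this share was 7.54%, 8.05%, 6.27% and 2.39% (saline, clodronate+saline, NMDA and clodronate+NMDA), and in a bipolar gate it was 7.14%, 8.15%, 6.89% and 2.38%. Among barcodes with LAMP5 it was 70.2%, 69.7%, 48.0% and 47.8%, and among those with NEUROD6 68.9%, 71.9%, 61.7% and 46.7%. TFAP2B gave 38.7%, 42.2%, 29.2% and 23.8%. Barcodes with PAX6 as their only partner had SLC6A9 in 15.7%, 17.5%, 17.8% and 14.9%, nearest of the partner subsets to the photoreceptor gate. These shares are not at equal depth. The median was 1301.5, 1570, 3133.5 and 6768 UMIs with PAX6 alone and 1232, 1436, 1441 and 1474 UMIs in the photoreceptor gate. SLC6A9 stood at 123, 89.0, 48.0 and 28.8 CPM with PAX6 alone and 67.0, 70.5, 53.6 and 15.5 CPM in that gate, so the NMDA value lay below the gate. By detected share LAMP5 and NEUROD6 were the partners that went with SLC6A9 most often, and barcodes with PAX6 alone lay closest to background.

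At the edge of the rule, barcodes with a partner but no SLC6A9 UMI numbered 1509, 1850, 1821 and 1644 in the 4 libraries. A further 62 to 131 barcodes per library missed the rule through 1 GAD UMI, and 13 to 65 through 1 RLBP1 UMI. CACNA2D3, an auxiliary subunit of voltage-gated calcium channels that the rule did not use, stood at 1429, 1329, 655 and 467 CPM over members with 2 or more SLC6A9 UMIs. Members with a single SLC6A9 UMI had 722, 778, 132 and 211 CPM of CACNA2D3, and barcodes just outside, without SLC6A9, had 237, 283, 119 and 117 CPM. In the NMDA library the members with a single SLC6A9 UMI were near the barcodes outside in CACNA2D3.

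The label was then checked against markers of the other retinal cell types. At least 3 genes of the pan-amacrine list were detected in 60.5%, 65.4%, 54.2% and 73.7% of members. Bipolar gate barcodes, which lack TFAP2A by rule but include some members, reached 3 in 5.06% to 7.34%. The GABAergic gate reached 3 in 72.5%, 83.6%, 65.9% and 89.1%, above the members in each library. That list also holds SNAP25, STX1A and ELAVL4, genes of neurons in general. In clodronate+NMDA it reached 3 in 82.2% of members with PAX6 alone and 67.2% of the others. Of those with PAX6 alone 72.4% had 3 or more ganglion cell markers. In saline, clodronate+saline and NMDA the order was the reverse. The list alone therefore does not tell amacrine from ganglion cells. At least 3 markers of MG were also detected in 18.3%, 14.2%, 42.0% and 20.9% of members, although RLBP1 was at 0 by the rule. The MG list summed to 1198, 1063, 7665 and 1501 CPM, highest in the NMDA library. At least 3 ganglion cell markers were found in 6.61%, 8.82%, 17.2% and 38.3% of members, and that list summed to 2074, 2608, 3727 and 6264 CPM. In the GABAergic gate 6.77%, 7.57%, 8.22% and 10.6% of barcodes had 3 or more ganglion cell markers. Over the members both ganglion cell measures were higher in the NMDA libraries, and highest in clodronate+NMDA.

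Members with 3 or more ganglion cell markers were large barcodes, with a median of 6182.5, 7028, 10668 and 9063 UMIs against 1621, 2043.5, 1939 and 1978 for the other members. They held 19.1%, 23.9%, 45.6% and 72.6% of the members' UMIs. Their SLC6A9 level was 223, 243, 125 and 122 CPM against 1688, 1452, 966 and 736 CPM in the other members, and 61.3% to 82.2% of them had PAX6 as their only partner. PAX6 is itself a gene of ganglion cells. Most member UMIs of the clodronate+NMDA library thus came from barcodes with 3 or more ganglion cell markers.

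Bipolar cell markers reached 3 or more genes in 25.6%, 21.0%, 27.4% and 25.1% of members, cone markers in 9.50%, 3.97%, 17.3% and 5.40%, and rod markers in 0.469% to 3.10%. The GABAergic gate gave 25.1%, 19.9%, 27.7% and 16.8% for bipolar cell markers and 8.84%, 4.53%, 15.0% and 4.26% for cone markers. Horizontal cell markers did so in 1.70% to 2.75% and oligodendrocyte-lineage markers in 0.715% to 1.70% of members. Microglial markers reached 3 genes in 1 member of the saline library and 1 of the NMDA library, and C1QA and CSF1R were at 0 over the saline members. With members carrying 3 or more markers of MG, bipolar, rod, cone or ganglion cells left out, 385, 788, 230 and 194 members remained, or 3.86%, 7.95%, 2.40% and 2.79% of kept barcodes. Over this stricter set SLC6A9, which every member carries by the rule, stood at 1942, 1621, 1880.2 and 866 CPM. This set was defined after the marker counts were seen. Its values are given beside the main counts and many of the named genes, and it is small, so that a number of genes have fewer than 50 UMIs in it over a pair of libraries.

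**Figure D1:**
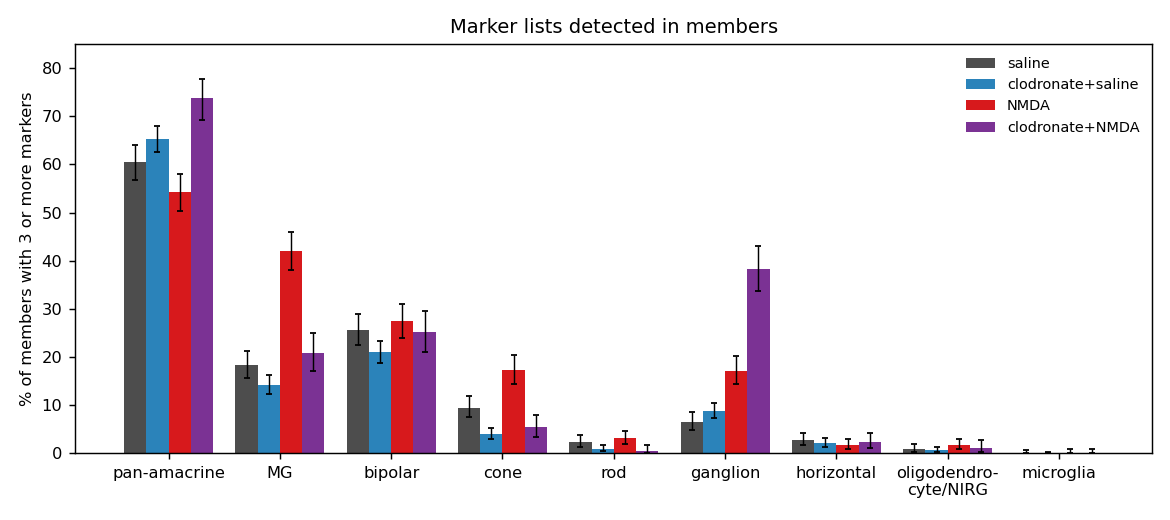
Percent of members with 3 or more detected genes of each cell type's marker list, by library, with exact 95% intervals. Pan-amacrine markers are highest in each library except that MG markers come near them in NMDA (42.0%), and ganglion cell markers rise to 38.3% of members in clodronate+NMDA.

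Which genes set these cells apart from GABAergic amacrine cells was asked by comparing members with a GABAergic gate of 4464 barcodes, which had GAD1 or GAD2, a partner gene and 0 UMIs of SLC6A9 and RLBP1. Counts were summed per library and class and tested with edgeR's quasi-likelihood test, with the library as a block. Members had more of the peptide transcripts NTS and SST7, of the transcription factor genes NEUROD2 and ZFPM2, and of CACNA2D3. They had less of the peptide genes GCG, NPY and VIP. The NTS and SST7 sums rested on few barcodes. By library, members with 10 or more UMIs over NTS, SST7 and PENK were 4.02% to 7.75% of members. They held 75% to 98.1% of the members' UMIs of these genes. At least 1 NTS UMI was found in 3.87% to 7.70% of members and 1.23% to 5.42% of the GABAergic gate. Of 11674 genes tested, 706 (6.05%) were higher and 638 (5.47%) lower at a Benjamini-Hochberg adjusted p below 0.05. With the stricter set in both classes 744 were higher and 871 lower. The number of genes tested there is not reported here, so the stricter set's list counts have no share of all genes beside them. The gates also differ in depth, with a GABAergic median of 2279 to 3411 UMIs, and genes that vary with the gate genes are not independent of the choice of barcodes.

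NEUROD2, a helix-loop-helix factor of neuronal differentiation, was at 162, 146, 62.5 and 60.8 CPM in members and at 15.7, 5.41, 7.31 and 6.21 CPM in the GABAergic gate. Its log2 fold change was 3.69 ± 0.24 (SE, 4 libraries; edgeR adjusted p = 5.44e-05). CACNA2D3 was at 1129, 1103, 314 and 271 CPM in members against 92.7, 63.9, 65.5 and 56.7 CPM, a log2 fold change of 3.11 ± 0.29 (edgeR adjusted p = 0.000268). For both genes the lowest member library was above the highest GABAergic library. ZFPM2, a cofactor of GATA factors, was at 404, 507, 142 and 110.0 CPM in members and 28.3 to 58.9 CPM in the GABAergic gate (log2 fold change 2.84 ± 0.26, edgeR adjusted p = 0.000223). NXPH2, a secreted ligand of neurexins, was at 332, 391, 132 and 33.3 CPM against 39.1, 28.1, 34.6 and 10.8 CPM (2.78 ± 0.30, edgeR adjusted p = 0.000535), and its clodronate+NMDA level in members lay within the GABAergic range. OSGIN1, an oxidative stress response gene, was at 55.6 to 128 CPM against 10.8 to 16.4 CPM (2.69 ± 0.15, edgeR adjusted p = 3.27e-05). The log2 fold changes were larger in the stricter set, at 5.30 for NEUROD2, 4.36 for CACNA2D3, 3.65 for ZFPM2, 4.41 for NXPH2 and 3.55 for OSGIN1.

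PLLP, a proteolipid gene of myelinating glia, and CRYAB, a small heat shock protein, were also among the genes with the largest increases (log2 fold changes 3.13 ± 0.18 and 3.12 ± 0.16). Neither was abundant enough for the test in the stricter set. All 4 tested markers of the oligodendrocyte lineage, 7 of 12 of MG and 7 of 8 of ganglion cells were higher over all members, and none was lower. Without the barcodes with 3 or more ganglion cell markers, a choice made on that list, 0 ganglion cell markers were higher and 1 was lower, while 9 MG, 8 cone and 4 bipolar cell markers were higher. Of the stricter set's tests 4 of 9 MG, 5 of 7 cone, 2 of 4 rod and 1 of 8 bipolar cell markers were higher and 1 MG marker was lower. The stricter set leaves out barcodes by these same lists, so its counts for them depend on that choice. The part of these other cell types in the remaining genes was not tested beyond the stricter set.

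On the GABAergic side, GCG, the glucagon precursor gene of a chick amacrine type, was at 0 to 1.97 CPM in members and 102, 171, 435 and 79.6 CPM in the GABAergic gate. The member counts of GCG lay at or near the level that a count of 0 allows. NPY, the neuropeptide Y gene, was at 3.74 to 6.55 CPM against 143 to 242 CPM (log2 fold change -5.17 ± 0.16, edgeR adjusted p = 6.06e-07), and VIP at 7.21 to 25.9 CPM against 74.5 to 306 CPM (-2.97 ± 0.44, edgeR adjusted p = 0.00246). The transcription factor NR4A2 (-4.17), the C1q-like synaptic proteins C1QL2 (-4.13) and C1QL1 (-3.31), the GDNF family receptor GFRA1 (-2.92) and the synapse organizer CBLN1 (-2.91) were lower in 4 of 4 libraries, and so was PRLL (-3.13). Each of these that could be tested stayed lower in the stricter set, between -2.50 for PRLL and -4.70 for NPY.

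**Figure D2:**
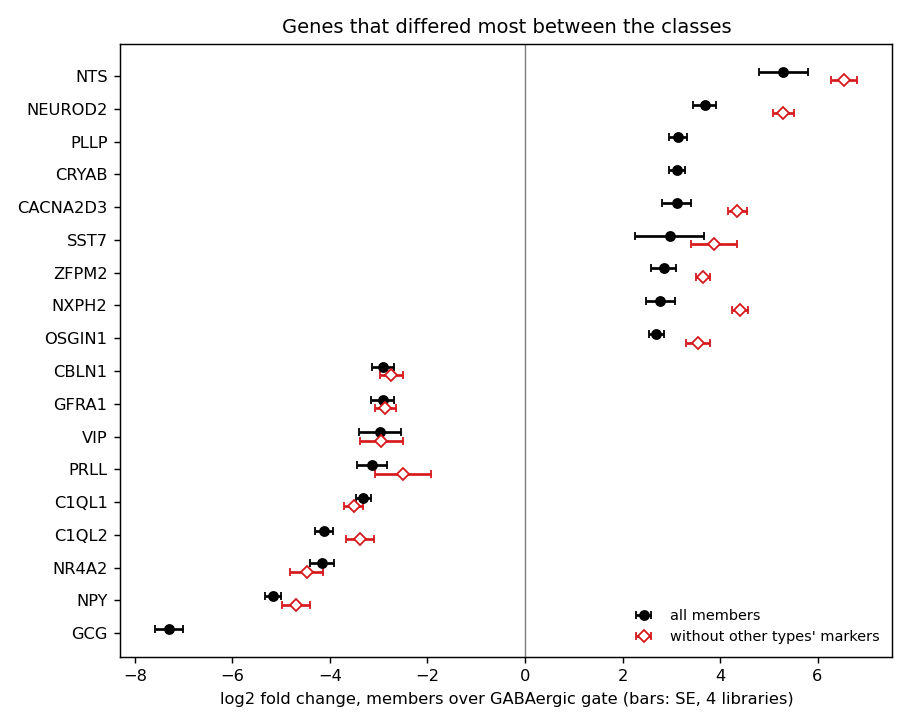
Log2 fold changes of members over the GABAergic gate with their standard errors (4 libraries per class) for genes with the largest increases and decreases under the naming rule. Open diamonds give the value without barcodes that carried 3 or more markers of another cell type, where NEUROD2 moved from 3.69 to 5.30 and NPY from -5.17 to -4.70.

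The lists of this comparison stand beside 6.05% higher and 5.47% lower over all genes tested. Of the 8 pan-amacrine genes 0 were higher and 5 lower in members, namely MEIS1, MEIS2, SLC32A1, SNAP25 and TFAP2A. In the stricter set 0 of these 8 were higher and 7 lower. Among 35 transcription factor genes of amacrine cells, 11 were higher and 13 lower in members, with a median of 0.37 against 0.01 over all genes tested. The EBF family was higher. EBF3 was at 737, 607, 376 and 632 CPM in members and 132, 93.0, 199 and 135 CPM in the GABAergic gate (log2 fold change 2.12 ± 0.25, edgeR adjusted p = 0.000688), and EBF1 was higher by 2.04 ± 0.20 (edgeR adjusted p = 0.000319). NFIB, a nuclear factor I gene, was higher by 1.97 ± 0.14, SATB1 by 1.52 and NEUROD1 by 1.30. In the photoreceptor gate NFIB was at 405 to 436 CPM, above its level over all members. NEUROD4 was higher by 1.66 ± 0.37 (edgeR adjusted p = 0.0186), and EBF2 and NFIX also passed the test. Lower genes were MEIS2 (-1.98 ± 0.18, edgeR adjusted p = 0.000195), TFAP2A (-2.30 ± 0.19, edgeR adjusted p = 0.000155), LHX9 (-3.24) and NR4A2, with, among others, FOXP1, LMO4, MAF, MEIS1, TFAP2C, TFAP2E, ZFHX3 and ZFHX4. MEIS2 and TFAP2A kept their calls in the stricter set, at -2.24 and -1.67, whereas TFAP2C and TFAP2E did not (-0.19, adjusted p = 0.563, and -0.33, adjusted p = 0.296, by edgeR).

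Genes of glycine transmission differed little between the classes. Of 11 tested, the glycine receptor subunit GLRA1 was higher (0.54 ± 0.13, edgeR adjusted p = 0.0237) and GLRB and the vesicular inhibitory amino acid transporter SLC32A1 were lower. SLC32A1 was at 197, 208, 97.0 and 65.2 CPM in members and 284 to 389 CPM in the GABAergic gate (-1.29 ± 0.21, edgeR adjusted p = 0.00447), and in the stricter set its difference was -0.40 (edgeR adjusted p = 0.0159). The neuronal glycine transporter SLC6A5 (GlyT2) was at 6.55, 7.49, 1.09 and 0 CPM in members. Of 16 genes of GABA transmission none was higher and 3 were lower, GABRA2 and GABRG1 among them, with a median of -0.20, whereas 2 of 15 were higher and 6 lower in the stricter set.

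Of 9 calcium-binding protein genes, HPCAL1, NCALD, S100A10 and SNCG were higher and none was lower, and the stricter set gave 4 higher and 1 lower. The genes were not the same, as S100A10 lost its call there (0.49, edgeR adjusted p = 0.245) and PVALB gained one (1.23, edgeR adjusted p = 0.000549). Among 24 ion channel genes 5 were higher (CACNA2D3, KCNH7, KCNQ5, SCN2A and SCN2B) and 3 lower, against 5 and 5 in the stricter set. There CACNA2D3, KCNH7 and KCNQ5 stayed higher. SCN2A turned lower there (-1.03, edgeR adjusted p = 0.00112), and SCN2B lost its call (-0.29, edgeR adjusted p = 0.497). None of 20 glutamate receptor genes was higher over all members and GRIA2, GRIA4, GRIN2B and GRM5 were lower, whereas in the stricter set 4 were higher and 4 lower. GRIN2B and GRM5 kept their calls there, whereas GRIA2 (-0.10, adjusted p = 0.594) and GRIA4 (-0.09, adjusted p = 0.619) did not, by edgeR. None of 22 synaptic release genes was higher and 5 were lower, CPLX3, SNAP25, SYP and SYT1 among them, and in the stricter set 3 of 18 were higher and 6 lower. SNAP25 and SYP were still lower there, whereas CPLX3 (-0.09, adjusted p = 0.759) and SYT1 (-0.21, adjusted p = 0.25) were not called, by edgeR. Of 18 tested genes from a list of amacrine types in the mouse, not all particular to glycinergic ones, 4 were higher, CCK, CNTN6 and EBF3 among them. In the same list 2 were lower. The shares over all genes tested were 6.05% higher and 5.47% lower. In the stricter set 2 of 16 genes of this list were higher and 4 lower. There EBF3 stayed higher (4.27), CCK was at -0.65 (edgeR adjusted p = 0.111) and CNTN6 was not abundant enough for the test.

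NEUROD6 divided the members into 124, 174, 95 and 49 barcodes with the gene (saline, clodronate+saline, NMDA and clodronate+NMDA) and 602, 1085, 551 and 377 without a UMI of it. A member without a UMI may still express the gene. Members with NEUROD6 had more of the related factors NEUROD1 and NEUROD2, of the receptor-type phosphatase gene PTPRK and of the calcium buffer PVALB, and less of PENK and the homeobox gene ISL1. PTPRK and PVALB lost their calls without members that had PAX6 alone, and PENK lost its call in the stricter set. Of 8677 genes, 54 (0.622%) were higher and 98 (1.13%) lower by edgeR's quasi-likelihood test with the library as a block. Median depth was 1701 to 2455 UMIs in members with NEUROD6 and 1699 to 3104 UMIs in those without.

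NEUROD2 was at 373, 239, 213 and 175 CPM with NEUROD6 and 122, 132, 38.4 and 38.7 CPM without (log2 fold change 1.72 ± 0.22, edgeR adjusted p = 0.00212). NEUROD1 was at 282, 270, 199.7 and 104 CPM against 118, 94.4, 82.2 and 31.8 CPM (1.42 ± 0.15, edgeR adjusted p = 0.000478). Both were higher in each library. PTPRK was at 564, 681, 336 and 51.8 CPM against 202, 155, 81.0 and 34.4 CPM (1.69 ± 0.20, edgeR adjusted p = 0.0011). PVALB was at 216, 258, 139 and 35.5 CPM against 88.8, 63.9, 39.6 and 22.8 CPM (1.56 ± 0.20, edgeR adjusted p = 0.00166), so that the clodronate+NMDA members with NEUROD6 lay below the saline members without it. In the stricter set, which gave 43 genes higher and 45 lower, NEUROD2 (1.14), NEUROD1 (1.48), PTPRK (1.58) and PVALB (1.10) remained higher. Members with PAX6 as their only partner all lack NEUROD6 by construction. Without them NEUROD2 stood at 1.04 and kept its call, while PTPRK (0.94), PVALB (0.74), KCNQ5 (0.68), NGB (0.95), TAFA1 (1.14) and DCLK3 (1.04) no longer passed.

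SLC17A8, the vesicular glutamate transporter VGLUT3 of a glycinergic amacrine type in the mouse, was at 116, 122, 15.8 and 0 CPM with NEUROD6 and 28.8, 21.9, 5.90 and 0 CPM without (2.13 ± 0.28, edgeR adjusted p = 0.0026). PPP1R17, expressed in NEUROD6 amacrine cells of the mouse, was higher by 1.60 (edgeR adjusted p = 0.0252). Neither SLC17A8 nor PPP1R17 was abundant enough for the test in the stricter set. The opioid receptor OPRM1 (1.72), neuroglobin NGB (1.56), the secreted protein TAFA1 (1.55), the potassium channel KCNQ5 (1.49) and the factors TFAP2D (2.0) and IRX1 (1.49) also passed, with the kinase gene DCLK3 (1.56). In the stricter set NGB, TAFA1 and KCNQ5 stood at 1.44, 1.83 and 1.44, while DCLK3 was lost (0.52, edgeR adjusted p = 0.635). OPRM1, TFAP2D and IRX1 were not abundant enough for the test there. TFAP2D was higher in both NMDA libraries, at 226 and 426 CPM with NEUROD6, than in the other libraries, at 45.6 and 38.2 CPM.

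Lower genes with NEUROD6 included ISL1 (-1.94, edgeR adjusted p = 0.000407). PENK was lower by edgeR (-1.94, adjusted p = 0.013) and not past the threshold in the stricter set (-1.16, adjusted p = 0.276). SOX9 (-3.86), NES (-3.50), F3 (-2.88) and FABP9 (-2.31) were lower, as were PLLP (-2.84), PRLL (-2.49), GRM5 (-2.45) and SYT10 (-2.31). Of these only FABP9 was abundant enough for the test in the stricter set. Without members that had PAX6 alone SYT10 stood at -0.52. SOX9, NES and F3 were highest in the NMDA members without NEUROD6, at 186, 236 and 513 CPM. Of 10 tested MG markers 2 were lower, and 0 of 6 in the stricter set, which leaves out barcodes by this same list. Beside these, at least 3 ganglion cell markers were found in 2.42%, 5.75%, 14.7% and 38.8% of members with NEUROD6 and 7.48%, 9.31%, 17.6% and 38.2% of the others. At least 3 MG markers were found in 21.8%, 17.2%, 35.8% and 12.2% against 17.6%, 13.7%, 43.0% and 22.0%. FABP9, itself on the MG list, was at -0.17 in the stricter set (edgeR adjusted p = 0.962), a value that depends on that choice of barcodes.

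Peptide transcripts were abundant over the members without NMDA, and they rested on few barcodes. SST7 (chromosome 21, 4096192 to 4099939), a somatostatin family gene, was at 15380 and 6421 CPM over saline and clodronate+saline members, and at 278 and 748 CPM over NMDA and clodronate+NMDA members. NTS (chromosome 1, 42227832 to 42240400), which encodes neurotensin, was at 3347, 1411, 20.7 and 61.2 CPM. PENK (chromosome 2, 111079689 to 111083800), which encodes proenkephalin, was at 5346, 1986, 73.4 and 70.5 CPM. All 3 genes were lower in both NMDA libraries than in both libraries without NMDA.

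In the GABAergic gate SST7 was at 572, 274, 212 and 214 CPM, NTS at 3.66 to 68.3 CPM and PENK at 437, 245, 209 and 269 CPM. By edgeR members exceeded the GABAergic gate in NTS (log2 fold change 5.30 ± 0.50, adjusted p = 0.00026) and SST7 (2.97 ± 0.71, adjusted p = 0.0258), each in 4 of 4 libraries, whereas PENK was below the GABAergic level in both NMDA libraries. At least 1 SST7 UMI was found in 41.7%, 27.6%, 11.6% and 18.5% of members. The same share in the photoreceptor gate, at a median of 1232 to 1474 UMIs, was 30.6%, 15.8%, 3.19% and 3.58%. At least 1 SST7 UMI was therefore also common in the photoreceptor gate of the saline library. Its source there was not tested.

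Members with 10 or more UMIs summed over SST7, NTS and PENK, a group chosen after the values were seen, numbered 39, 81, 26 and 33. They were 5.37%, 6.43%, 4.02% and 7.75% of members and held 98.1%, 97.2%, 75% and 91.2% of the members' peptide UMIs. Members with all 3 genes at once among these were 22 in saline (3.03%, 1.91 to 4.55%), 40 in clodronate+saline (3.18%, 2.28 to 4.30%), 1 in NMDA (0.155%, 0.00392 to 0.859%) and 2 in clodronate+NMDA (0.469%, 0.0569 to 1.69%). In the libraries without NMDA these few barcodes held 97.4% and 94.6% of the peptide UMIs of all members. The largest SST7 count in a barcode was 1301, 843, 88 and 292 UMIs.

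The gate genes of the peptide-rich members are a description, since members were selected on them. TFAP2B was detected in 15.4%, 17.3%, 19.2% and 6.06% of them against 43.2%, 38.8%, 27.7% and 32.6% of other members. NEUROD6 was detected in 2.56%, 8.64%, 46.2% and 36.4% against 17.9%, 14.2%, 13.4% and 9.41%, so its order differed between the libraries with and without NMDA. Of these peptide-rich members 6 of 39, 25 of 81, 19 of 26 and 30 of 33 also had 3 or more ganglion cell markers. In the stricter set the levels were 13267, 7755, 336 and 853 CPM for SST7, 2881, 1675, 12.6 and 133 CPM for NTS, and 4551, 2392, 101 and 174 CPM for PENK. The order between the libraries with and without NMDA was as before. Among all kept barcodes, those with 10 or more peptide UMIs and all 3 genes were 46, 50, 2 and 4.

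**Figure D3:**
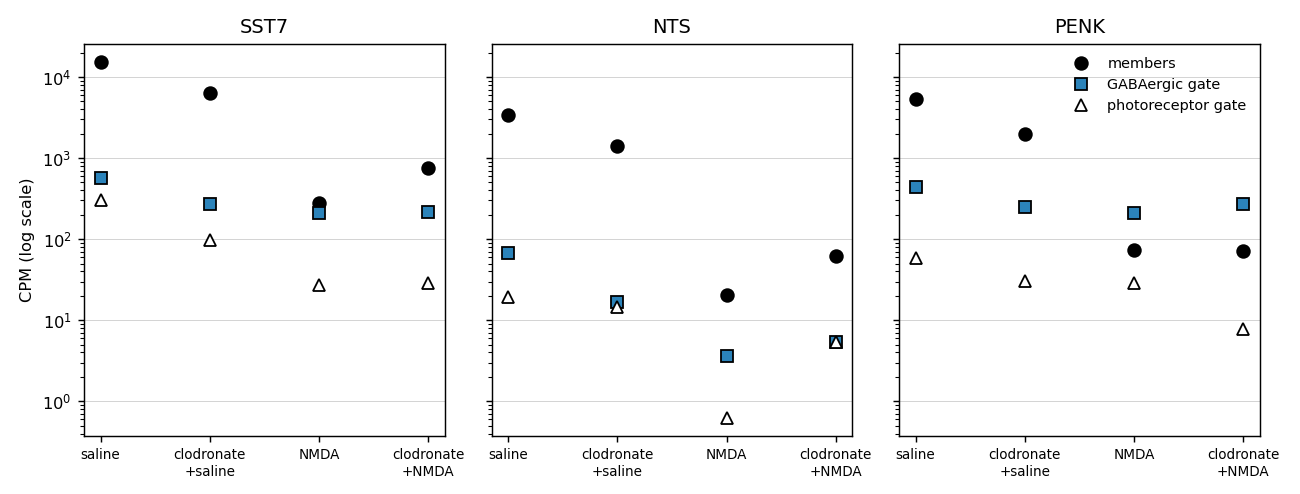
Level of SST7, NTS and PENK in CPM on a log axis, for each library, over members, the GABAergic gate and the photoreceptor gate. In members SST7 stood at 15380 and 6421 CPM without NMDA and at 278 and 748 CPM with NMDA, while in the GABAergic gate it stayed between 212 and 572 CPM.

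The effect of NMDA was read in 2 pairs of libraries that share none, NMDA over saline and clodronate+NMDA over clodronate+saline. In both pairs SST7, NTS, PENK, CACNA2D3, the calcium-binding protein gene CALB2 and NEUROD4 were lower with NMDA, and S100A6, S100A10 and GADD45B were higher. A gene was counted as past 2-fold among genes with at least 50 UMIs over the pair. In the first pair 666 of 8790 genes were higher (7.58%) and 513 lower (5.84%), and in the second 420 of 9413 were higher (4.46%) and 819 lower (8.7%). Of 8549 genes read in both pairs, 179 were higher and 283 lower in both, and 13 moved in opposite directions. In the stricter set 84 and 329 genes were higher and 77 and 350 lower, of 3987 and 6052 genes.

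NTS fell by 7.34 on the log2 scale in the first pair (6.96 to 7.74) and by 4.53 in the second (4.28 to 4.78), where the GABAergic gate gave -4.22 and -1.64. PENK fell by 6.19 and 4.82 in members, with -1.06 and 0.13 in the GABAergic gate. SST7 fell by 5.79 and 3.10 in members, with -1.43 and -0.36 in the GABAergic gate and -3.65 and -0.27 over all other barcodes. In the stricter set NTS stood at -7.83 and -3.66, PENK at -5.49 and -3.78 and SST7 at -5.30 and -3.18. These sums carry the few peptide-rich barcodes described above. Without the peptide-rich members the falls were smaller in both pairs. That group was chosen on the UMIs of these same genes, so smaller falls follow in part from the choice. NTS then stood at -0.88 and -1.37, PENK at -1.45 and -2.60 and SST7 at -2.94 and -1.31.

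CALB2, calretinin, was at 3853 and 4373 CPM in the saline and clodronate+saline members and at 725 and 1173 CPM in the NMDA and clodronate+NMDA members. Its log2 ratios were -2.41 (-2.48 to -2.34) and -1.90 (-1.96 to -1.84), beside -1.27 and -0.79 in the GABAergic gate, and they were -1.66 and -2.01 in the stricter set. The helix-loop-helix genes NHLH1 and NEUROD4 were lower, NHLH1 at 110.1, 47.1, 3.63 and 2.22 CPM (log2 ratios -4.92 and -4.41) and NEUROD4 at 77.3, 46.2, 13.1 and 5.77 CPM (-2.56 and -3.00). Their stricter values were -3.30 and -2.77 for NHLH1 and -1.82 and -2.31 for NEUROD4. The vesicle release gene DOC2B was at -2.26 and -3.45 (-1.77 and -3.14 in the stricter set), NOX3 at -3.72 and -2.93, and SLC17A8 at -2.55 in the first pair. SLC17A8 was at 0 in the clodronate+NMDA members against 34.9 CPM in clodronate+saline, a log2 ratio of at least 4.71 below against the level of 3 counts in that library.

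CACNA2D3, which followed SLC6A9 at the edge of the rule, was at -1.85 (-1.97 to -1.73) and -2.03 (-2.15 to -1.90) over all members. It was at -0.46 and -0.75 in the stricter set, short of 2-fold in both pairs, and in the GABAergic gate at -0.50 and -0.17. With 2 or more SLC6A9 UMIs CACNA2D3 was at -1.13 and -1.51, and without members that had PAX6 alone at -1.05 and -1.37.

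Among higher genes, FABP9 was at 9.83, 58.0, 1453 and 268 CPM in saline, clodronate+saline, NMDA and clodronate+NMDA members (log2 ratios 7.21 and 2.21). Over all other barcodes the FABP9 ratios were 5.36 and 2.24, and the MG marker list was also highest over the NMDA members. The part of MG in this value was not tested over all members, and in the stricter set, with 1 UMI in the saline library, FABP9 was at 6.82 and 3.61. S100A6 (6.37 and 5.03) and S100A10 (2.82 and 2.06), calcium-binding proteins, were higher as well, and in the stricter set S100A10 was at 1.51 and 1.08 and S100A6 had fewer than 50 UMIs in each pair. In the GABAergic gate S100A6 moved by 5.55 and 6.12 and S100A10 by 2.74 and 1.59. Over all other barcodes the ratios were 4.82 and 4.19 for S100A6 and 2.81 and 1.76 for S100A10. SOX21, a transcription factor gene, was at 0, 0.312, 82.9 and 23.1 CPM, at least 5.40 higher in the first pair on the log2 scale against the level of 3 counts. For SOX21 the GABAergic gate moved by 6.38 and 4.24. PRLL, a prolactin-like gene, was at 3.93, 1.87, 133 and 549 CPM (5.08 and 8.20), and the GABAergic gate moved by 7.0 and 8.59.

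TMEM158 was at 15.1, 2.81, 115 and 27.1 CPM (2.93 and 3.27), and the GABAergic gate moved by 3.57 and 2.67. The peptide gene ADCYAP1, which encodes PACAP, was at 62.9, 56.8, 313 and 343 CPM (2.31 and 2.60). It is also a gene of ganglion cells in other species. GPR137B was at 3.28 and 2.37, MUSTN1 at 2.86 and 2.64 and TPPP3 at 2.03 and 2.30. TMEM158, ADCYAP1, GPR137B, MUSTN1 and TPPP3 all had fewer than 50 UMIs per pair in the stricter set, where ADCYAP1 was at 1.47 and 0.99, GPR137B at 1.15 and 0.99, MUSTN1 at -1.59 and 0.40 and TPPP3 at -0.49 and 0.49.

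**Figure D4:**
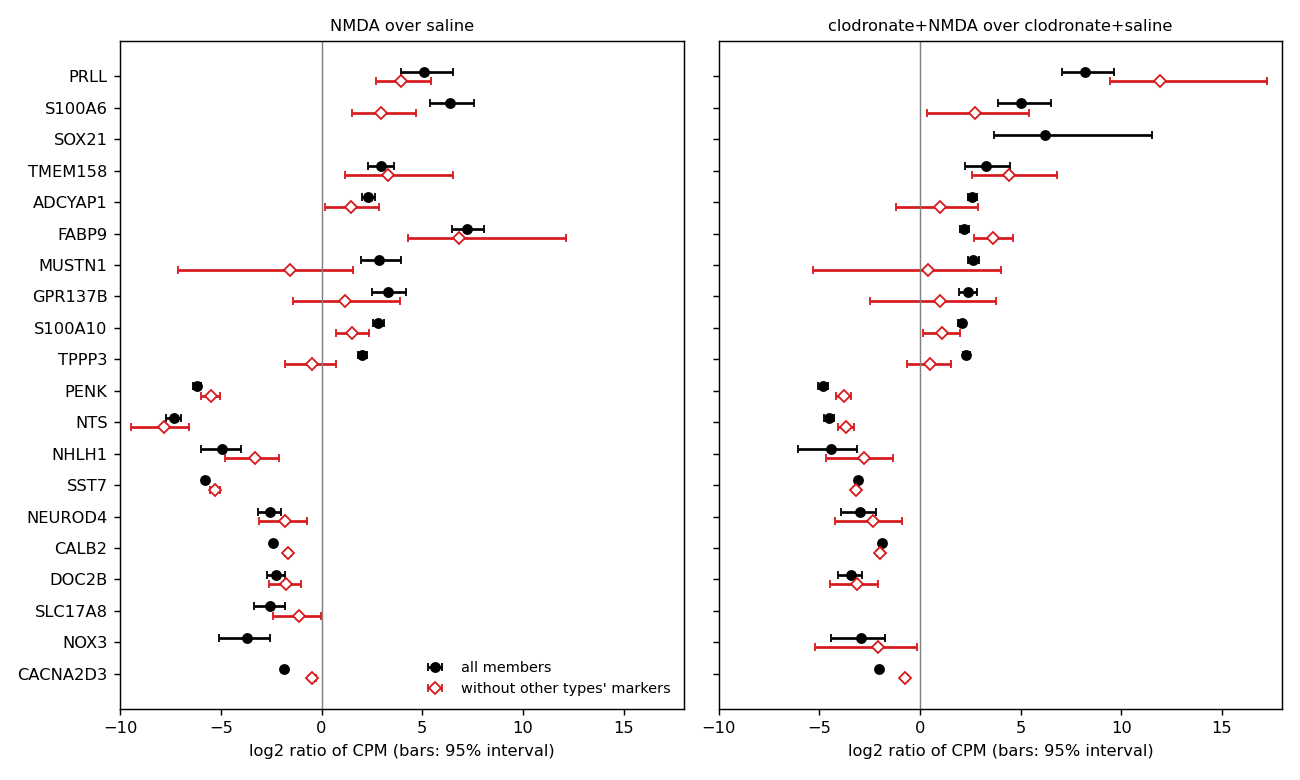
Log2 ratios of NMDA over saline and of clodronate+NMDA over clodronate+saline with exact 95% intervals for the 20 genes that moved past 2-fold in both pairs under the naming rule, over all members and without barcodes carrying other cell types' markers. Ratios with a library at 0 are not drawn. NTS, PENK and SST7 are far below 0 in each set, whereas CACNA2D3, MUSTN1 and TPPP3 move toward or across 0 in the stricter set.

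The gene lists were read against the shares of all genes given above, 7.58% higher and 5.84% lower in the first pair and 4.46% and 8.7% in the second. Of 14 genes of the integrated stress response and cell injury, 7 were higher and none lower in the first pair, and of 15 in the second 8 were higher and 1 lower. The stricter set gave 2 of 10 and 9 of 13 higher and none lower. GADD45B, a DNA damage and stress gene, was at 154, 138, 337 and 381 CPM (log2 ratios 1.13 and 1.47, and 1.55 and 2.51 in the stricter set). CHAC1, a glutathione-degrading enzyme of the stress response, was at 2.62, 12.5, 13.4 and 43.0 CPM (2.36 and 1.79), and the heat shock gene HSPB1 at 14.4, 16.2, 58.1 and 103 CPM (2.01 and 2.67). GADD45B was past 2-fold in both sets and both pairs, and moved by 2.20 and 2.09 in the GABAergic gate. HSPB1 had fewer than 50 UMIs in each pair in the stricter set, and CHAC1 had fewer than 50 in the first pair in both sets. Of the stress chaperone list 5 of 15 were higher in the first pair and none lower, and in the second 2 of 14 were higher and 1 lower, where the stricter set gave 0 and 1 of 12 higher. Synaptic release genes had 2 higher and 4 lower of 19 in the first pair and 2 higher and 5 lower of 19 in the second, with SV2C and VAMP2 higher in both. Of 12 neuropeptide genes 5 were higher and 4 lower in the first pair, and 3 and 5 in the second.

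Of 13 immediate early genes 5 were higher in the first pair and of 12 in the second 7, with none lower. In the stricter set 0 of 8 were higher and 1 lower in the first pair, and 5 of 8 were higher in the second. MYC was at 9.83, 11.8, 44.7 and 58.1 CPM (2.18 and 2.29), and at 3.66 in the second pair in the stricter set. ATF3, an injury-induced factor, was at 1.61 and 1.71, and had fewer than 50 UMIs in each pair in the stricter set.

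Of the 8 pan-amacrine genes TFAP2A and SLC32A1 were lower in both pairs and BARHL2 was higher in the second, and in the stricter set none of 7 was past 2-fold. TFAP2A was at 262, 192, 87.2 and 78.9 CPM, with ratios of -1.58 and -1.28, and at 358, 248, 255 and 304 CPM in the stricter set, with ratios of -0.49 and 0.29. SLC32A1 was at -1.02 and -1.68 over all members and at 0.06 and -0.10 in the stricter set. TFAP2C, TFAP2E, NEUROD2 and PROX1 fell past 2-fold in both pairs over all members, and none of these did in the stricter set. Of the 33 amacrine transcription factor genes of each pair, 4 and 7 were higher and 7 and 9 lower, and in the stricter set 0 of 22 and 4 of 26 were higher and 4 lower in each.

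The glycine transmission list had 4 of 10 genes lower and 1 higher in the first pair, and 3 of 10 lower and none higher in the second. The stricter set gave 1 of 9 lower in each pair, with 0 and 1 higher. Its receptor subunit GLRA1 was at 101, 102, 29.1 and 23.9 CPM (-1.80 and -2.09), and at -0.65 and -1.05 in the stricter set. GLRA1 in the GABAergic gate was at -2.22 and -1.75. The glutamate receptor list had 7 of 19 and 5 of 20 lower with 0 and 1 higher, and in the stricter set 0 of 14 and 6 of 18 lower. Its metabotropic receptor gene GRM8 was at 834, 682, 269 and 168 CPM (-1.63 and -2.02), and at -0.40 and -1.29 in the stricter set. Of 24 channel genes 5 and 7 were lower and none higher, and in the stricter set 0 and 3 were lower.

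Clodronate was also read in 2 pairs that share no library, clodronate+saline over saline and clodronate+NMDA over NMDA. Interferon-stimulated genes were higher in members after clodronate, most clearly without NMDA, and AVD, GBE and SAA were lower. In the first pair 180 of 9056 genes were higher past 2-fold (1.99%) and 95 lower (1.05%), and in the second 149 of 9140 were higher (1.63%) and 542 lower (5.93%). In both pairs at once 22 were higher and 17 lower of 8507, and 15 moved in opposite directions. The stricter set gave 132 higher and 84 lower of 6405 in the first pair and 71 and 74 of 3238 in the second, so that the excess of lower genes in the second pair was not seen there.

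OASL, an interferon-induced antiviral gene, was at 1.97, 246, 2.91 and 114 CPM in saline, clodronate+saline, NMDA and clodronate+NMDA members. Its log2 ratios were 6.97 (5.42 to 9.25) and 5.29 (4.29 to 6.52), and 7.48 in the first pair in the stricter set, with fewer than 50 UMIs in the second. The same gene moved by 8.55 and 1.47 in the GABAergic gate. IFIT5 (4.72 and 3.41), CMPK2 (3.79 and 4.66) and IFI27L2 (3.74 and 2.36), interferon-stimulated genes as well, were higher in both pairs, IFIT5 at 1.97, 51.8, 4.72 and 50.1 CPM. Of the 14 interferon-stimulated genes read in the first pair 12 were higher and none lower, with a median log2 ratio of 3.74 against 0.04 over all genes, and of 11 in the second 4 were higher. The GABAergic gate gave 12 of 15 higher in the first pair, and the stricter members 5 of 7.

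Of 7 MHC presentation genes 6 were higher in the first pair, and of 4 in the second 1 was higher. The other gene of the first pair, CD74, was lower. CD74 serves MHC class II and is also on the microglial marker list. B2M, the light chain of MHC class I, was at 61.0, 179.7, 77.8 and 75.4 CPM (1.56, 1.24 to 1.89, in the first pair and -0.04, -0.34 to 0.25, in the second). Past 2-fold in the first pair were also BF1, BF2, TAP1, TAP2 and TAPBP. The B2M difference between the saline and clodronate+saline members was 1.14 in the stricter set and 2.57 in the GABAergic gate.

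Other higher genes were ANKRD1 (4.95 and 4.80), MUSTN1 (2.55 and 2.33), LRRC75B (1.77 and 1.30) and the amino acid synthesis genes PHGDH (2.95 and 2.78), PYCR1 (1.89 and 1.20) and ASNS (1.51 and 1.44). PHGDH, the entry enzyme of serine synthesis, was at 2.62, 20.3, 22.2 and 153 CPM, higher in both NMDA libraries as well. ASNS, asparagine synthetase, was at 12.5, 35.6, 48.0 and 129.9 CPM and followed the same order. Without members that had 3 or more ganglion cell markers ANKRD1 was at 4.51 and 0.28. Without members that had PAX6 alone it was at 4.31 and 1.13, so its second ratio depended on these barcodes. ANKRD1, MUSTN1 and LRRC75B had fewer than 50 UMIs in each pair in the stricter set, with MUSTN1 at -1.95 and 0.04. PHGDH stood there at 0.37 and 2.0, PYCR1 at 0.59 and 0.93 and ASNS at 1.41 and 0.89, with fewer than 50 UMIs for these in the first pair, so PYCR1 and ASNS were not past 2-fold in the second.

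AVD, an avidin gene, was at 56.4 CPM in saline members and 26.5 CPM in NMDA members and at 0 in both clodronate libraries, at least 5.91 and 4.32 lower on the log2 scale against the level of 3 counts. Over all other barcodes AVD fell by 9.86 and 9.50, so its loss was shared with the rest of the retina. GBE was at 84.6, 0.312, 35.2 and 3.55 CPM and SAA, a serum amyloid gene, at 61.0, 0.936, 16.0 and 3.10 CPM, and both were lower in the GABAergic gate and over other barcodes in each pair. MEF2C (-1.45 and -1.50), ETV5 (-1.75 and -1.25), KCNJ12 (-1.13 and -1.68), TPD52L1 (-1.25 and -2.59), UTRN (-1.56 and -1.47), SFRP1 (-1.44 and -1.68) and the cone transducin gene GNAT2 (-1.02 and -1.84) were lower by less. Stricter values were -2.11 and -0.46 for MEF2C and -2.40 and -0.49 for ETV5, each with fewer than 50 UMIs in the second pair, -1.06 and -0.42 for KCNJ12, and -1.51 and -1.28 for GNAT2. The direction of UTRN (-2.44 and 1.63) and SFRP1 (-0.63 and 0.78) turned there in the second pair, with fewer than 50 UMIs in each, as for TPD52L1 (-1.87 and -2.28). In the clodronate+saline over saline pair no gene past 2-fold was found in the lists of pan-amacrine, glycine, GABA, glutamate receptor, synaptic release, calcium-binding and channel genes. Over all genes 1.99% were higher and 1.05% lower, so lists of this size could hold few calls. Of 12 neuropeptide genes 2 were higher and 2 lower, and of 32 amacrine transcription factor genes 1 and 1. Of 11 immediate early genes 0 were higher and 2 lower, and of 13 stress and injury genes 2 and 0. CHAT and SLC18A3, the 2 tested genes of the cholinergic and dopaminergic list, were higher.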

How the data were processed

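Retinas of wild-type chicks were dissociated with papain, and 1 10x Genomics 3′ library was made per condition (4 libraries). The deposited files hold raw UMI counts per gene and barcode, not normalized, for the barcodes that Cell Ranger 7.0.1 called as cells, with genome build GRCg7b, per the submitters' processing notes. The study's methods name an earlier chicken assembly with an Ensembl annotation, and its text names Chromium 3′ V2 reagents for these libraries. Which annotation release lies behind the deposited matrices was not settled here. Counts at the 3′ end of 30108 features were used as deposited, and features that share a symbol were summed (29839 symbols). Gene positions came from the RefSeq table of GRCg7b.

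Kept barcodes had at least 200 genes and at most 5% mitochondrial UMIs. No doublet caller was run. Members, a GABAergic gate, a photoreceptor gate and a bipolar gate were taken by rule from detected genes. The members and lists were chosen with earlier results of these data known. Of 422 genes written in the lists, 370 were found.

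Levels are summed UMIs scaled to a total of 1000000 (CPM). Libraries were compared by CPM ratios with exact conditional binomial intervals among genes with at least 50 UMIs over both libraries, called past 2-fold, and shares have Clopper-Pearson intervals. A bound against a count of 0 used 3 counts in that library. Classes were compared on sums per library and class with edgeR 4.0.16 (TMM, filterByExpr, glmQLFit and glmQLFTest, library as block, Benjamini-Hochberg adjusted p below 0.05). The 8 gate genes were described and not tested. Sums of 1 library are not separate animals, so p-values measure only the spread between libraries. Both scripts were tested on simulated data.

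Genes were named by a rule. It took the gate genes, the listed genes by list, the 10 highest and 10 lowest genes of each edgeR comparison, and the 10 highest and 10 lowest genes past 2-fold in both pairs of libraries. The edgeR genes needed an adjusted p below 0.05, 1 sign in all 4 libraries, at least 50 CPM in the higher class and a gene symbol. The genes of the library pairs were ranked by the smaller interval bound. Some genes that the rule names are not reported here. Genes named from outside the rule were chosen after their values were seen.

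Alternatives were other choices of barcodes (at most 2500 genes, 2 or more SLC6A9 UMIs, no members with PAX6 alone, no members with 3 or more markers of MG, bipolar, rod or cone cells, thinning to 1000 UMIs), other scalings (TMM, median of ratios), UMI minimums of 20 and 100, RLE scaling, DESeq2 1.42.0, no filter on low counts, no library block and each library left out. Leaving out members with ganglion cell markers, with markers of any of these other types, or with 10 or more peptide UMIs, and leaving out both NMDA or both other libraries, was added after seeing the data. Analyses ran in R 4.3.3 and in Python 3.11.15 with matplotlib 3.10.9, scipy 1.17.1, pandas 2.3.3 and numpy 2.4.6.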

Additional observations from a re-analysis of the deposited data

Results flagged for a closer look

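The direction of 4 named genes differed between pairs of libraries, with both ratios past 2-fold and opposite in sign. These differences were not tested, since each pair holds 1 library per condition. VIP was at a log2 ratio of 1.24 for NMDA over saline and -1.17 for clodronate+NMDA over clodronate+saline. FABP9 was at 2.56 for clodronate+saline over saline and -2.44 for clodronate+NMDA over NMDA. In the same pairs of libraries NTS was at -1.25 and 1.56, and SST7 at -1.26 and 1.43.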

How the results depend on the processing

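Members as a percent of kept barcodes (saline, clodronate+saline, NMDA and clodronate+NMDA) were 4.35, 7.71, 3.25 and 1.84 with 2 or more SLC6A9 UMIs, 5.72, 10.9, 4.39 and 3.47 without members that had PAX6 alone, 3.95, 8.40, 2.53 and 3.49 without MG, bipolar, rod and cone markers, 3.86, 7.95, 2.40 and 2.79 without these and ganglion cell markers, and 6.28, 8.82, 4.0 and 2.82 thinned. With at most 2500 genes they were 11.9, 5.11 and 3.96, and without ganglion cell markers alone 11.6, 5.59 and 3.79, in the last 3 libraries.

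Past 2-fold in NMDA over saline, 341 genes were higher and 165 lower with at most 2500 genes, 334 and 164 with 2 or more SLC6A9 UMIs, 294 and 150 without members that had PAX6 alone, 99 and 77 without MG, bipolar, rod and cone markers, 84 and 77 without any other type's markers, and 1057 and 787 at a minimum of 20 UMIs. At 100 UMIs 341 were lower. In clodronate+NMDA over clodronate+saline 655 were higher and 1231 lower at 20 UMIs, and 421, 525, 473, 473 and 350 were lower with at most 2500 genes, without PAX6 alone, without MG, bipolar, rod and cone markers, without ganglion cell markers and without any of these. In clodronate+saline over saline 461 were higher and 208 lower at 20 UMIs, and 64 and 42 at 100. In clodronate+NMDA over NMDA 80, 63, 294, 71, 329 and 78 were higher with 2 or more SLC6A9 UMIs, without PAX6 alone, without ganglion cell markers, without any other type's markers, at 20 and at 100 UMIs. Lower there were 251, 210, 222, 177, 74, 891 and 341 with at most 2500 genes, 2 or more SLC6A9 UMIs, without PAX6 alone, without MG, bipolar, rod and cone markers, without any other type's markers, at 20 and at 100 UMIs. TMM scaling moved the share of higher calls in NMDA over saline from 56.5% to 65.2%, and the median of ratios moved that of clodronate+NMDA over clodronate+saline from 33.9% to 42.1%.

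Against the GABAergic gate 451 genes were higher with 2 or more SLC6A9 UMIs, 460 without MG, bipolar, rod and cone markers, and 1211 (1216 lower) with no filter on low counts. Leaving both NMDA libraries out gave 1067 lower. Leaving out each library gave 409 to 654 higher, lowest without clodronate+saline, and 396 to 586 lower. DESeq2 gave 563 higher and 547 lower. For NEUROD6, 100 genes were higher and 150 lower with at most 2500 genes, 21 and 15 with 2 or more SLC6A9 UMIs, 13 and 14 without MG, bipolar, rod and cone markers, 131 and 542 with no filter, and 28 to 70 and 53 to 99 with each library left out. Lower were 40 without PAX6 alone, 45 without any other type's markers and 52 with DESeq2. The classes of 1 library are paired by that library, and the fit with no replicate block gave 169 higher and 184 lower against the GABAergic gate and 0 higher and 1 lower for NEUROD6, where DESeq2 gave 44 higher.

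TPPP3 in NMDA over saline was at -0.12 with at most 2500 genes, -0.0566 without ganglion cell markers and -0.49 without any other type's markers. MUSTN1 there was at -0.28 and -1.59 under the last 2 choices, at -0.98 and -1.95 in clodronate+saline over saline, and, without ganglion cell markers, at -0.34 in clodronate+NMDA over clodronate+saline and -1.05 in clodronate+NMDA over NMDA. In clodronate+NMDA over NMDA SFRP1 was at 0.0328 and UTRN at 0.93 without MG, bipolar, rod and cone markers, and at 0.78 and 1.63 without any other type's markers. The cause was not tested. Of 889 values of named ratios under the alternatives 654 moved by less than the counting interval, 222 moved by more and 13 reversed. The UMI minimums of 20 and 100 cannot change a ratio, and the 76 values of each are among the 654. Without any other type's markers only 17 of 72 moved by less than the interval, 50 moved by more and 5 reversed. Of 313 values of named genes against the GABAergic gate 307 kept their call and direction, and of 234 for NEUROD6 187 did.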
